A study of Mus musculus with 6 samples.

Results

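The genes described here encode the core machinery of microRNA and small interfering RNA (siRNA) action: the nuclease genes Drosha and Dicer1, their partner genes Dgcr8, Tarbp2 and Prkra, the export receptor gene Xpo5 and the Argonaute genes Ago1, Ago2, Ago3 and Ago4. They were taken as the rows of the deposited table whose gene name equals one of these symbols, and all 10 were found, each once, among 54884 entries. The libraries were 3 of mouse neural stem cells transduced with a lentivirus for circHIPK2 siRNA and 3 of the same kind of cells transduced with a lentivirus for circCon siRNA, the control. circHIPK2 is a circular RNA made from the Hipk2 gene. All cells were C57BL/6 neural stem cells from the hippocampus at embryonic day 14, used between passages 3 and 8. Every library thus came from cells that carried an siRNA lentivirus, and untransduced cells are not analysed here. Whether the 3 libraries of a group came from separate cultures is not stated, so every p-value rests on the spread among libraries alone, and that spread may be technical.

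A microRNA begins as a hairpin in a longer transcript. In the nucleus the Microprocessor, made of the nuclease DROSHA and the RNA-binding protein DGCR8, cuts the hairpin out, and exportin-5 carries it to the cytoplasm. There DICER, with its partners TRBP (Tarbp2) and PACT (Prkra), trims it to a short duplex, and one strand is loaded into an Argonaute protein, which finds target mRNAs by pairing with the seed, bases 2 to 8 of the small RNA. siRNAs enter the same Argonaute proteins, of which AGO2 is known in mammals as the main one that cuts its target. In neural stem cells, microRNAs such as miR-9 are known to take part in the change from dividing progenitor to neuron.

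A few microRNA sequences show the substrates on which this machinery works and that have an entry in the table. The sequences are from RefSeq (GRCm38.p6). The first is the hairpin of miR-1306 at chr16:18284239-18284317 on the minus strand, shown because it lies inside coding exon 2 of Dgcr8 itself in GENCODE M21, with the mature arms in capitals. In the arms that follow, capitals mark the seed. The others belong to the host transcripts whose levels are given further on.
Mir1306 hairpin: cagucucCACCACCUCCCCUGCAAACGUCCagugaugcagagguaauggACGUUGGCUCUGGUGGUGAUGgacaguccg
mmu-miR-1306-5p: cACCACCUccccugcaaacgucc
mmu-miR-1306-3p: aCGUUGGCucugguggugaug
mmu-miR-9-5p: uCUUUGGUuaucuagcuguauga
mmu-miR-9-3p: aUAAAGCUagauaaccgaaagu
mmu-miR-22-5p: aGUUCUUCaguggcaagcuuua
mmu-miR-22-3p: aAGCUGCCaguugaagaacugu
mmu-miR-670-5p: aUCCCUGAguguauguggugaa
mmu-miR-670-3p: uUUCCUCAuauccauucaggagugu
The 8 arms carry 8 different seeds. The miR-9 hairpin lies at chr7:79505264-79505353 on the plus strand, that of miR-22 at chr11:75463716-75463810 on the plus strand and that of miR-670 at chr2:94261300-94261399 on the minus strand.

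Values are FPKM, fragments per kilobase of transcript, scaled to the number of mapped fragments, so levels can be set side by side between genes. Depth was read from the steps between low FPKM values and lay between 18430000 and 20990000 fragments in the circHIPK2 siRNA libraries and between 19880000 and 21900000 in the circCon siRNA libraries. With the longest annotated transcript of each gene, the members rested on between 222 fragments (the lowest library of Ago4) and 3889 fragments (the highest of Ago1). A set of 9 entries of, or varying with, the ribosomal RNA locus (AY036118, CT010467.1, Lars2 and 6 with Gm names) took 11.5%, 3.24% and 19.9% of all FPKM in circHIPK2 siRNA libraries 1 to 3 and 0.58%, 0.43% and 0.32% in circCon siRNA libraries 1 to 3, and the median log2 fold change of the 13702 entries tested was −0.12. All 8 neural stem cell markers were among these entries, while 0 of 5 microglial, 0 of 5 endothelial and mural and 0 of 4 erythroid markers were. Of the 8 stem cell markers, 3 (Fabp7, Hes1 and Hes5) lay entirely lower with circHIPK2 siRNA, against 22.1% of all entries tested, and 0 passed the test used below. Of 6 neuron markers 4 were tested, and their list summed to between 92.5 and 104 FPKM with circHIPK2 siRNA and between 119 and 129 FPKM with circCon siRNA. Most of the neuron marker sum was Map2, at a mean of 89.0 FPKM with circHIPK2 siRNA and 109 FPKM with circCon siRNA. For 3 of the 4 neuron markers tested the libraries lay entirely lower, against 22.1% of all entries tested, and 0 passed the test used below. All 4 astrocyte markers were tested, and their sum was between 139.9 and 348 FPKM with circHIPK2 siRNA and between 147 and 267 FPKM with circCon siRNA. Of 5 oligodendrocyte markers 4 were tested, and the sum was between 241 and 303 FPKM with circHIPK2 siRNA and between 302 and 330.5 FPKM with circCon siRNA. Most of this sum was Olig2, at a mean of 203 FPKM with circHIPK2 siRNA and 242 FPKM with circCon siRNA. The libraries of 0 of the 4 lay entirely lower, against 22.1% of all entries tested. The summed level of 10 liver markers was between 1.98 and 2.22 FPKM with circHIPK2 siRNA and between 38.2 and 61.7 FPKM with circCon siRNA. Of these 10, 9 were tested, and all 9 passed the test used below as lower with circHIPK2 siRNA, among 19 entries called lower in all. The cut-off for being tested took both groups together. Of the 9, all but Apoa2 averaged under 1 FPKM with circHIPK2 siRNA, so their circCon siRNA level alone brought them in. That all 9 were called lower is thus partly set by the cut-off. The part of any of the markers of these cell types in the results was not tested. Hipk2 mRNA, which is no measure of the circle, averaged 27.0 ± 2.78 FPKM with circHIPK2 siRNA and 33.2 ± 3.23 FPKM with circCon siRNA (SD, n = 3 each).

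The comparison of circHIPK2 siRNA with circCon siRNA asks whether silencing the circle is accompanied by a change in the machinery. None of the 10 genes passed the test (limma on log2(FPKM + 1), Benjamini-Hochberg adjustment over all entries, adjusted p below 0.05), against 0.255% of all entries tested. At an unadjusted p below 0.05, 0 of the 10 were higher and 2, Prkra and Ago1, lower, against 1.83% of all entries higher and 15.5% lower. The log2 fold changes ran from −0.28 for Ago1 to 0.05 for Ago3, with 9 of 10 below 0. The 95% intervals of the 10 log2 fold changes, unadjusted, all lay between −0.55 and 0.35. These limits hold for the deposited scaling and for log2(FPKM + 1) only. With the ribosomal RNA locus entries removed and the columns rescaled, the log2 fold change of Ago3 was 0.22 (SE 0.16). As deposited, the median of the 10 log2 fold changes was −0.07, which is 0.05 above that of all entries tested. In such bulk libraries, fewer cells that express a gene and less of its RNA per cell cannot be told apart.

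**Figure D1:**
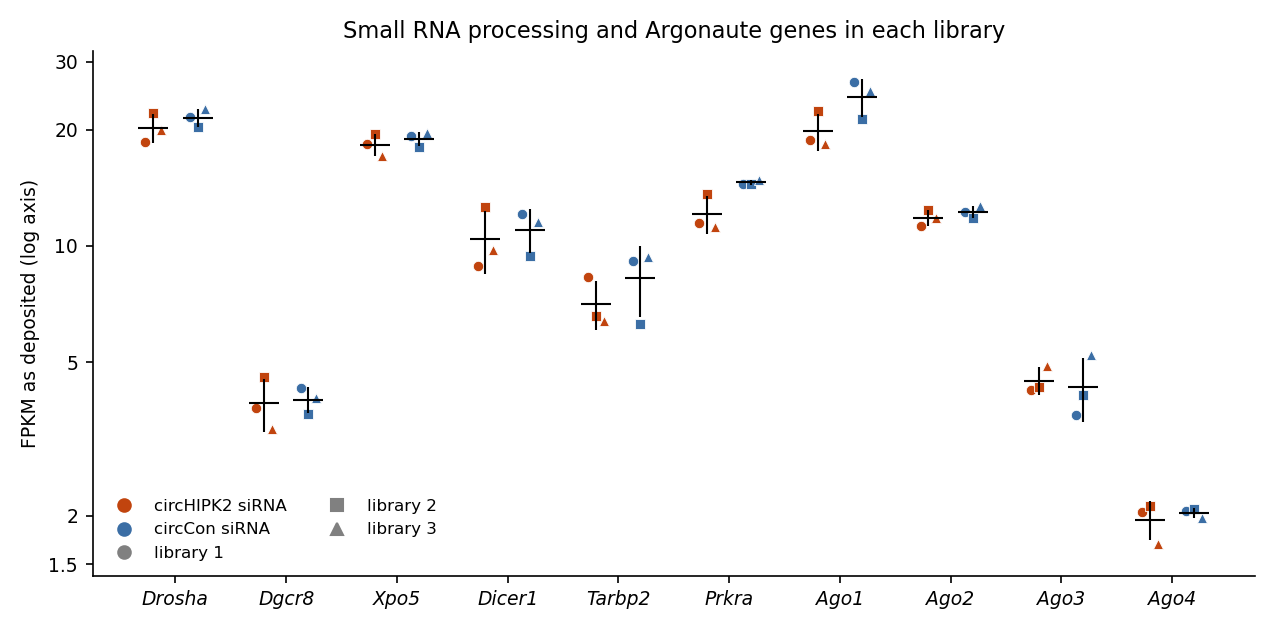
FPKM of each gene in each library on a log axis, with circHIPK2 siRNA in orange to the left and circCon siRNA in blue to the right. Symbols tell libraries 1 to 3 apart, and black bars give the mean ± SD. The groups overlap for every gene but Prkra.

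Among the Microprocessor genes, Drosha, which encodes the nuclease, had 18.6, 22.1 and 19.9 FPKM in circHIPK2 siRNA libraries 1 to 3, against 21.6, 20.3 and 22.6 FPKM in circCon siRNA libraries 1 to 3. The groups overlapped, with circHIPK2 siRNA library 2 above circCon siRNA libraries 1 and 2. The log2 fold change was −0.09 (SE 0.10; adjusted p = 0.645, limma). Dgcr8, which encodes the hairpin-binding subunit, had 3.80, 4.57 and 3.37 FPKM with circHIPK2 siRNA, against 4.29, 3.68 and 4.03 FPKM with circCon siRNA. The highest value of all 6 was circHIPK2 siRNA library 2 and the lowest was circHIPK2 siRNA library 3. Its log2 fold change was −0.03 (SE 0.12; adjusted p = 0.908, limma).

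The Dgcr8 entry differs from those of the other 9 genes in how its value is written. The others have at most 6 decimals, whereas 3 of the 6 Dgcr8 values have 7, as the mean of 2 six-decimal values would. Entries with 7 or more decimals number 393 in the table. Of the values with exactly 7 decimals, 998 of 1005 end in 5, and 9 of the 10 expressed entries next to Dgcr8 in GENCODE M21 have 7 decimals too. What was averaged is not stated, so the level of Dgcr8 relative to Drosha cannot be taken at face value. The Mir1306 entry, whose hairpin is printed above and lies inside Dgcr8 exon 2, had 9.13, 9.50 and 7.79 FPKM with circHIPK2 siRNA, against 8.21, 6.73 and 9.15 FPKM with circCon siRNA. Reads over it may come from Dgcr8 mRNA as well as from the hairpin. Within each library, the ratio of Dgcr8 to Drosha FPKM was 0.204, 0.207 and 0.169 with circHIPK2 siRNA, against 0.199, 0.181 and 0.178 with circCon siRNA. On the log2 scale the ratios differed by 0.05 (exact two-sided permutation p = 0.8, where 3 against 3 libraries cannot give less than 0.1).

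Xpo5, the exportin of hairpin precursors, had 18.3, 19.4 and 17.0 FPKM in circHIPK2 siRNA libraries 1 to 3, against 19.3, 18.0 and 19.6 FPKM in circCon siRNA libraries 1 to 3. The groups overlapped, and the log2 fold change was −0.05 (SE 0.09; adjusted p = 0.789, limma). It was among the steadiest of the 10 genes, with a coefficient of variation of 6.56% over the circHIPK2 siRNA libraries and 4.35% over the circCon siRNA libraries.

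Dicer1 had 8.85, 12.6 and 9.75 FPKM with circHIPK2 siRNA, against 12.1, 9.41 and 11.5 FPKM with circCon siRNA. Library 2 was the highest of the circHIPK2 siRNA group and the lowest of the circCon siRNA group, and the groups overlapped. The log2 fold change was −0.08 (SE 0.14; adjusted p = 0.774, limma). Tarbp2, whose product TRBP stabilises DICER and is known to hand the duplex to AGO2, had 8.29, 6.57 and 6.40 FPKM with circHIPK2 siRNA, against 9.16, 6.28 and 9.38 FPKM with circCon siRNA. The spread within the circCon siRNA group, 6.28 to 9.38 FPKM, took in all 3 circHIPK2 siRNA libraries. Its log2 fold change was −0.19 (SE 0.16; adjusted p = 0.54, limma).

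Prkra, which encodes PACT, a DICER partner also known as an activator of the double-stranded RNA-dependent kinase PKR, was the only one of the 10 genes whose groups stood apart in the deposited FPKM. It had 11.5, 13.6 and 11.2 FPKM with circHIPK2 siRNA, against 14.5, 14.5 and 14.8 FPKM with circCon siRNA. All 3 circHIPK2 siRNA libraries thus lay lower, with the circCon siRNA libraries close together, but 22.1% of all entries tested lay entirely lower as well. The mean was 12.1 ± 1.34 FPKM with circHIPK2 siRNA and 14.6 ± 0.19 FPKM with circCon siRNA (SD, n = 3 each), and its log2 fold change of −0.26 did not pass (SE 0.10; adjusted p = 0.256, limma). After removal of the 9 ribosomal RNA locus entries and rescaling of the columns, the libraries of Prkra overlapped and the log2 fold change was −0.06. The Tarbp2 to Prkra ratio within a library was 0.722, 0.483 and 0.573 with circHIPK2 siRNA, against 0.632, 0.434 and 0.633 with circCon siRNA. On the log2 scale it differed by 0.07 (exact two-sided permutation p = 0.7), and the sign turned without circHIPK2 siRNA library 1 (−0.09) or circCon siRNA library 2 (−0.11).

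The 4 Argonaute genes encode the proteins that hold the small RNA. Ago1, Ago3 and Ago4 are annotated on chromosome 4 and Ago2 on chromosome 15. Ago1 had 18.8, 22.3 and 18.4 FPKM with circHIPK2 siRNA, against 26.5, 21.2 and 25.2 FPKM with circCon siRNA. Library 2 of each group broke the separation, since circHIPK2 siRNA library 2 lay above circCon siRNA library 2. The log2 fold change was the most negative of the 10, −0.28 (SE 0.12; adjusted p = 0.279, limma). Ago2 had 11.3, 12.4 and 11.8 FPKM with circHIPK2 siRNA, against 12.2, 11.8 and 12.7 FPKM with circCon siRNA. These values overlapped and were close together, with coefficients of variation of 4.76% with circHIPK2 siRNA and 3.70% with circCon siRNA, and a log2 fold change of −0.05 (SE 0.09; adjusted p = 0.791, limma).

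Ago3 was at 4.23, 4.31 and 4.90 FPKM with circHIPK2 siRNA, against 3.64, 4.10 and 5.23 FPKM with circCon siRNA. The circCon siRNA libraries spanned those of the other group on both sides. Its log2 fold change of 0.05 was the only positive one (SE 0.13; adjusted p = 0.855, limma). It was −0.04 without circCon siRNA library 1 and −0.0045 without circHIPK2 siRNA library 3. Ago4, the least abundant of the 10 genes, was at 2.05, 2.12 and 1.70 FPKM with circHIPK2 siRNA, against 2.06, 2.09 and 1.97 FPKM with circCon siRNA. Its groups overlapped, and circHIPK2 siRNA library 3 was the low one (log2 fold change −0.04, SE 0.11; adjusted p = 0.851, limma).

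A share of the Argonaute FPKM within a library is not altered when all values of that library are multiplied by 1 factor, as in median-of-ratios scaling or the rescaling of columns. Ago1 was the largest part, with 51.7%, 54.3% and 50.0% of the summed Argonaute FPKM in circHIPK2 siRNA libraries 1 to 3 and 59.7%, 54.2% and 55.9% in circCon siRNA libraries 1 to 3. Ago2 came second, with 31.01%, 30.12% and 32.06% with circHIPK2 siRNA, against 27.51%, 30.06% and 28.18% with circCon siRNA. The Ago2 share was higher in all 3 circHIPK2 siRNA libraries, though library 2 differed little between the groups. Its mean was 31.1% ± 0.97 with circHIPK2 siRNA and 28.6% ± 1.33 with circCon siRNA (SD, n = 3 each), a difference of 2.48 percentage points with an exact two-sided permutation p = 0.1, the smallest possible. Adjusted over the 7 within-library and summed measures examined, p was 0.35 (Benjamini-Hochberg, exact permutation tests). The Ago3 share was 11.8% ± 1.44 with circHIPK2 siRNA and 10.1% ± 1.74 with circCon siRNA, and the Ago4 share was 5.13% ± 0.51 with circHIPK2 siRNA and 4.77% ± 0.49 with circCon siRNA. Both overlapped between the groups. The sum of the 4 genes was 36.3, 41.1 and 36.8 FPKM with circHIPK2 siRNA, against 44.5, 39.2 and 45.1 FPKM with circCon siRNA (exact two-sided permutation p = 0.2). This difference of −4.86 FPKM was −0.95 FPKM with median-of-ratios scaling and −0.88 FPKM with quantile normalization, and 0.89 FPKM with the ribosomal RNA locus entries removed and columns rescaled.

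**Figure D2:**
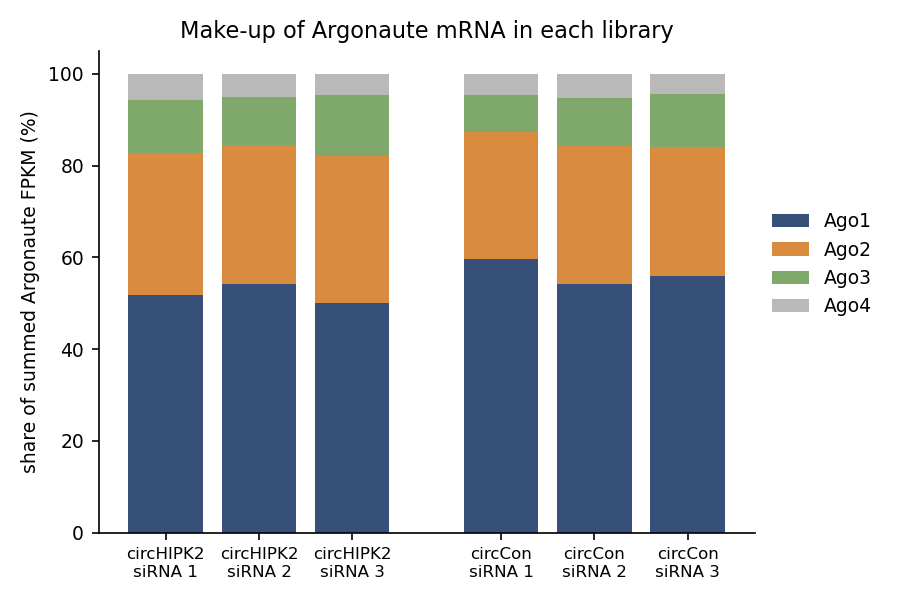
Share of the summed Argonaute FPKM taken by each gene, in percent, with 1 bar per library: circHIPK2 siRNA libraries 1 to 3 at the left, circCon siRNA libraries 1 to 3 at the right. Ago1 and Ago2 together make up over 80% of each bar, and the Ago2 part runs from 30.12% to 32.06% with circHIPK2 siRNA and from 27.51% to 30.06% with circCon siRNA.

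Ordered by mean level, Drosha (20.2 FPKM), Ago1 (19.8 FPKM) and Xpo5 (18.3 FPKM) stood first with circHIPK2 siRNA, and the library ranges of neighbours in this trio overlapped. Prkra (12.1 FPKM), Ago2 (11.8 FPKM) and Dicer1 (10.4 FPKM) formed the next overlapping run, separate from Xpo5 above and from Tarbp2 (7.09 FPKM) below. Ago3 (4.48 FPKM) and Dgcr8 (3.91 FPKM) overlapped, and Ago4 (1.95 FPKM) stood apart at the bottom. The place of Dgcr8 in either group cannot be taken at face value, since its entry may be a mean, as said above. With circCon siRNA the order was the same except that Ago1 (24.3 FPKM) stood above Drosha (21.5 FPKM), with overlapping ranges. In that group Drosha and Xpo5 (18.9 FPKM) no longer overlapped, nor did Prkra (14.6 FPKM) and Ago2 (12.2 FPKM). Among all entries tested, the mean over all libraries placed Ago1 at percentile 77.7, Drosha at 76.4, Dicer1 at 56.8 and Ago4 at 12.3.

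The libraries highest or lowest of their group for most of the 10 genes were so for the largest share of all entries too. Library 2 was the highest of the circHIPK2 siRNA group for 8 of the 10 genes, against 64.2% of all entries tested, and the lowest of the circCon siRNA group for 7 of the 10, against 49.7% of all entries tested. circHIPK2 siRNA library 3 was the lowest of its group for 6 of the 10 genes, against 59.0% of all entries. These libraries also had the smallest and the largest share of FPKM in the ribosomal RNA locus entries among the circHIPK2 siRNA libraries, 3.24% and 19.9%. Once those entries were removed and the columns rescaled, library 2 was the highest of the circHIPK2 siRNA group for 3 of the 10 genes, against 23.4% of all entries. circCon siRNA library 2 was then the lowest of its group for 9 of the 10, against 60.2% of all entries. Rescaling multiplied all values of a library by the same factor, and in each group that of library 2 was the smallest. Its lower rank after rescaling thus follows at least in part from the factors. Whether the order of libraries is linked to the share of the ribosomal RNA locus was not tested.

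**Figure D3:**
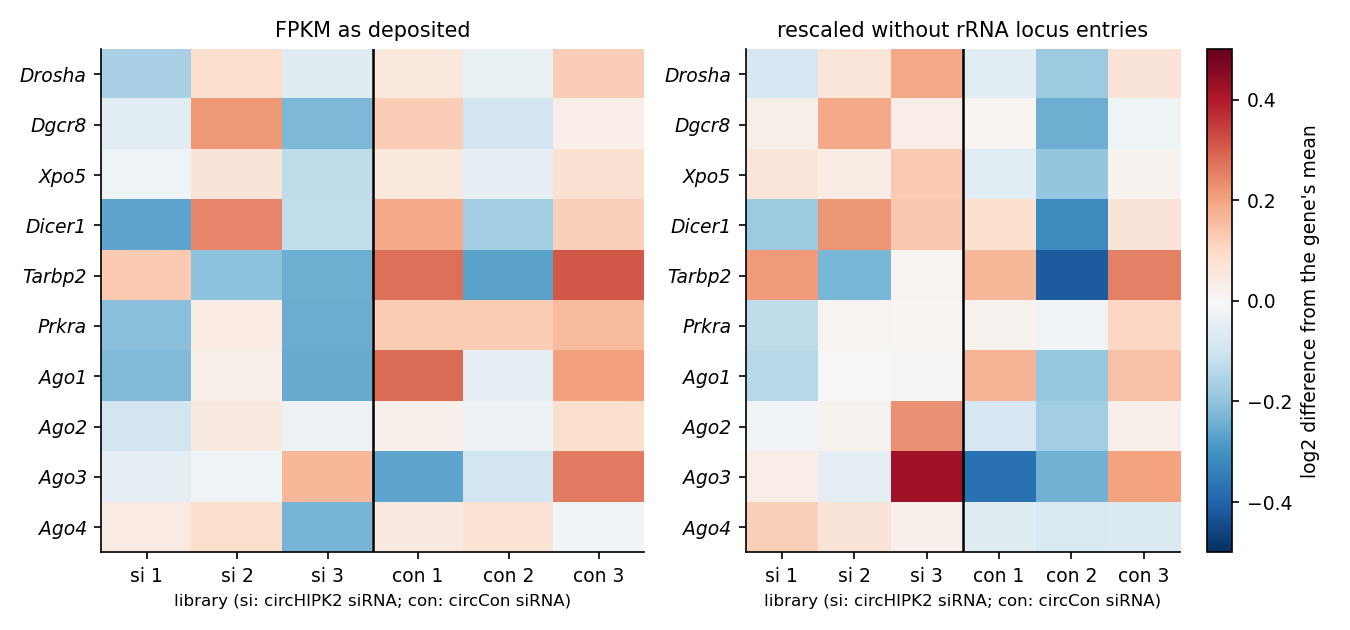
Difference of each library from the gene's mean over the 6 libraries, as log2 of FPKM in colour, for the values as deposited (left) and after removal of the ribosomal RNA locus entries and rescaling (right). Columns si 1 to 3 are circHIPK2 siRNA and con 1 to 3 circCon siRNA. As deposited, si 2 is the highest of its group for 8 genes, and after rescaling con 2 is the lowest of its group for 9.

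The direction of most of these genes depended on the scaling. As deposited, 1 of the 10 log2 fold changes was positive, against 22.9% of all entries tested. With median-of-ratios scaling, which brought the median of all entries to −0.00095, 7 of the 10 were positive (49.8% of all entries), and with the rescaled columns, where that median was 0.06, again 7 of the 10 (64.2% of all entries). In each of the 3 scalings the same 7 of the 10 genes lay above the median of all entries. Scaling by a factor per library moves the genes and that median nearly together, so these are not 3 separate results. None passed the test in any of them (smallest adjusted p = 0.256 as deposited, 0.457 with median-of-ratios and 0.563 rescaled, limma). Rescaled, 0.219% of all entries passed. Prkra, Ago1 and Tarbp2 kept a negative sign in all 3, with log2 fold changes after rescaling of −0.06, −0.08 and −0.0045. Drosha, Dgcr8, Xpo5, Dicer1, Ago2 and Ago4 were negative as deposited and positive in the other 2. After rescaling, the libraries of Dgcr8, Xpo5 and Ago4 lay entirely higher with circHIPK2 siRNA, 3 of the 10 against 14.0% of all entries, and 0 of the 10 entirely lower, against 4.28%. Xpo5 then averaged 19.7 ± 0.67 with circHIPK2 siRNA and 17.7 ± 1.30 with circCon siRNA, and Ago4 2.10 ± 0.070 with circHIPK2 siRNA and 1.90 ± 0.011 with circCon siRNA (rescaled FPKM, SD, n = 3 each).

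**Figure D4:**
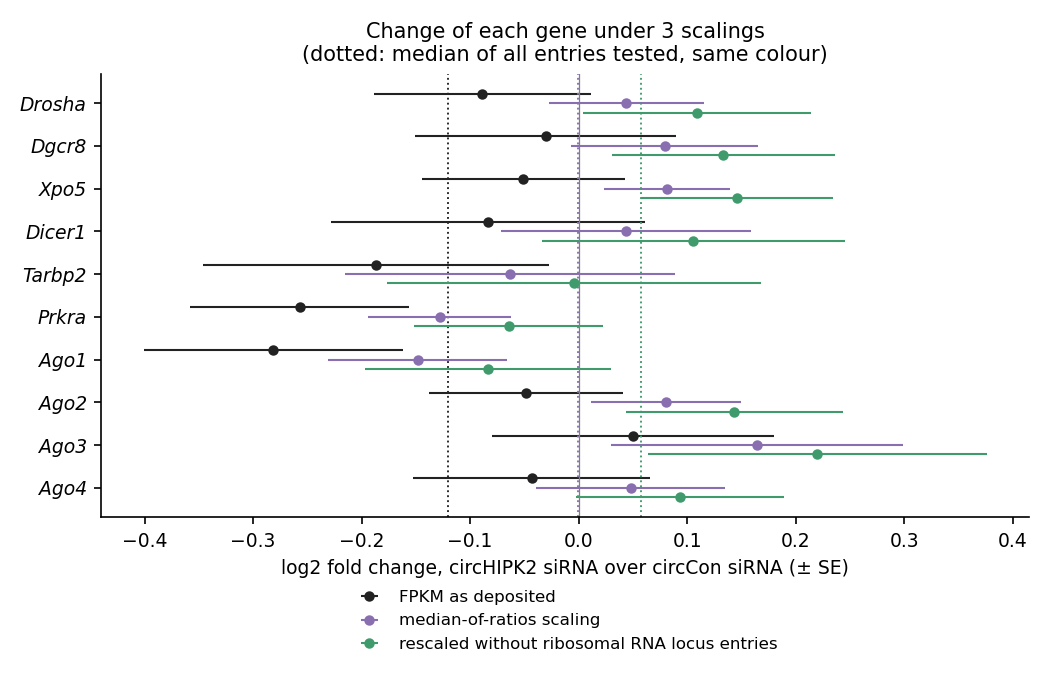
Log2 fold change of circHIPK2 siRNA over circCon siRNA for each gene, on the log2(FPKM + 1) scale, with its standard error, under 3 scalings. Dotted lines mark the median of all entries tested in the same colour (−0.12 as deposited, −0.00095 with median-of-ratios scaling and 0.06 rescaled). The same 7 of the 10 genes lie to the right of it in each, since scaling moves genes and median nearly together.

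The entries whose pattern over the 6 libraries was nearest to that of Ago2 were Lin7c, Chd8 and Spg21, at a root mean square difference of 0.0099, 0.014 and 0.016 in log2(FPKM + 1) after centring. The median over the 11197 entries compared was 0.135. Among those nearest to Dicer1 were Wdr73 and Smim15, at 0.035 and 0.042, against a median of 0.181. Smim15 had 20.4, 28.1 and 20.8 FPKM with circHIPK2 siRNA, against 25.6, 21.6 and 25.3 FPKM with circCon siRNA, which is the order of libraries seen for Dicer1 in each group. All these entries were picked as the nearest over the same 6 libraries. Their small differences and the shared order follow from that choice and test nothing.

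Of 76 other genes of small RNA pathways, all had an entry and 62 had a mean of at least 1 FPKM. None of the 62 passed the test in either direction (limma), against 0.255% of all entries, and at an unadjusted p below 0.05, 2 were higher and 12 lower, against 1.83% and 15.5% of all entries. Their median log2 fold change was −0.13, beside −0.12 for all entries. For 2 genes the libraries lay entirely higher, and for 14 entirely lower, against 2.65% and 22.1% of all entries. With the rescaled columns the unadjusted counts were 7 higher and 0 lower, against 8.86% and 2.86% of all entries. In those columns 9 lay entirely higher and 2 entirely lower, against 14.0% and 4.28% of all entries. With median-of-ratios scaling the unadjusted counts were 5 higher and 5 lower, against 6.52% and 6.83% of all entries. None of the 62 passed in either scaling (limma).

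**Figure D5:**
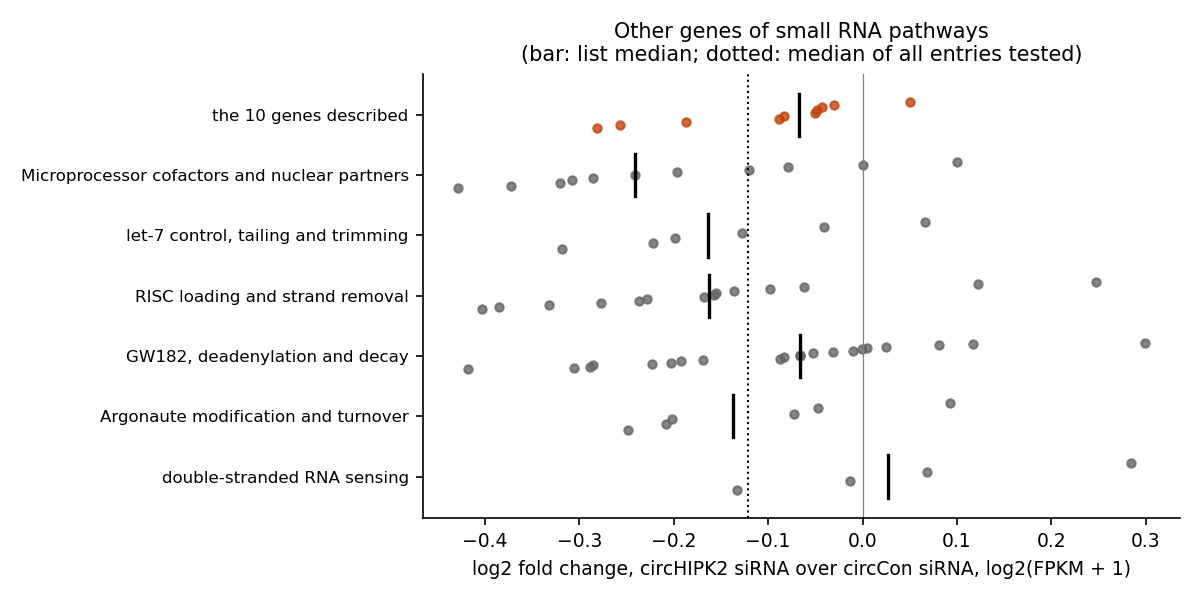
Log2 fold change of circHIPK2 siRNA over circCon siRNA for each tested gene of 6 lists of small RNA pathways, in grey, below the 10 core genes, in orange. Black bars are list medians, from −0.24 for Microprocessor cofactors to 0.03 for double-stranded RNA sensing, and the dotted line is the median of all entries tested, −0.12.

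Among 11 Microprocessor cofactors and nuclear partners the median log2 fold change was −0.24, and 4 of the 11 lay entirely lower, against 22.1% of all entries. Rescaled, 1 of the 11 lay entirely lower and 2 entirely higher, against 4.28% and 14.0% of all entries. Ddx5, an RNA helicase of the Microprocessor and the most abundant of them, had 121, 129.9 and 151 FPKM with circHIPK2 siRNA, against 147, 169.6 and 185 FPKM with circCon siRNA. The groups overlapped by circHIPK2 siRNA library 3 alone, and the log2 fold change of −0.32 did not pass (SE 0.13; adjusted p = 0.267, limma). Among 9 genes of let-7 control, tailing and trimming, 6 were tested, with a median of −0.16. Lin28a, Lin28b and Trim71, whose products hold back let-7 or act in early progenitors, were under 0.05 FPKM on average in both groups. Tut4, a uridylyltransferase that tails precursor hairpins, had 9.58, 9.15 and 12.9 FPKM with circHIPK2 siRNA, against 19.6, 9.39 and 9.54 FPKM with circCon siRNA, so that circCon siRNA library 1 stood apart.

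The 14 genes of Argonaute loading and strand removal had a median of −0.16. Hsp90ab1, the chaperone that holds Argonaute open for loading and their most abundant member, had 629, 734 and 611 FPKM with circHIPK2 siRNA, against 773, 568 and 731 FPKM with circCon siRNA, with wide overlap. Limd1, an Argonaute-binding LIM protein gene named after its values were seen, had the smallest adjusted p of the 62. It had 16.4, 18.8 and 16.2 FPKM with circHIPK2 siRNA, against 24.1, 21.4 and 23.3 FPKM with circCon siRNA (log2 fold change −0.40, SE 0.10; adjusted p = 0.159, limma). Its libraries did not overlap as deposited, as for 22.1% of all entries in that direction. Rescaled, 0 of the 14 genes lay entirely higher and 0 entirely lower, against 14.0% and 4.28% of all entries.

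Downstream of Argonaute, the 21 genes of the GW182 scaffold proteins, deadenylation and decay had a median of −0.07, and 13 of them lay above the median of all entries. Pabpc1, the poly(A)-binding protein gene and the most abundant, had 168, 178 and 143 FPKM with circHIPK2 siRNA, against 184, 178 and 196 FPKM with circCon siRNA. Tnrc6a, the GW182 gene with the highest level, averaged 31.7 ± 0.63 FPKM with circHIPK2 siRNA and 31.7 ± 1.05 FPKM with circCon siRNA (SD, n = 3 each). Pan3, a subunit of a poly(A) nuclease, was 1 of the 2 genes that lay entirely higher, with 5.22, 5.57 and 5.36 FPKM with circHIPK2 siRNA, against 4.07, 4.08 and 4.41 FPKM with circCon siRNA (log2 fold change 0.30, SE 0.09; adjusted p = 0.199, limma). Tnrc6a, Pan3, Lin28a, Lin28b and Trim71, and Tlr3 and Mael below, were named after their values were seen.

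Among 6 genes of Argonaute modification and turnover the median was −0.14, and P4hb, a subunit of the prolyl hydroxylase known to modify AGO2, averaged 81.5 ± 6.67 FPKM with circHIPK2 siRNA and 94.1 ± 2.69 FPKM with circCon siRNA (adjusted p = 0.32, limma). Of 8 genes that sense double-stranded RNA, 4 were tested, with a median of 0.03. Mavs, the mitochondrial adaptor of RNA sensors, had 13.8, 15.1 and 13.1 FPKM with circHIPK2 siRNA, against 15.9, 14.7 and 15.7 FPKM with circCon siRNA. Eif2ak2, which encodes the kinase PKR that PACT binds and was named after its values were seen, averaged 5.68 ± 0.49 FPKM with circHIPK2 siRNA and 5.74 ± 0.53 FPKM with circCon siRNA. Tlr3, an endosomal receptor for double-stranded RNA and the other gene that lay entirely higher, had 5.52, 5.61 and 5.36 FPKM with circHIPK2 siRNA, against 4.06, 4.97 and 4.02 FPKM with circCon siRNA (adjusted p = 0.24, limma). The Piwi and piRNA genes of the germline were at the other end of the range, with 0 of 7 at a mean of 1 FPKM, and Mael was listed at 0 in every library.

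The table also holds transcripts that host microRNA hairpins, which were looked at after the values were seen. Of 10 entries named as microRNA host genes, 4 were tested and none passed (limma), against 0.255% of all entries. At an unadjusted p below 0.05, 0 were higher and 1, Mir670hg, was lower, against 1.83% and 15.5% of all entries. Mir9-3hg, which hosts a hairpin of the neural microRNA miR-9 printed above, had 27.2, 25.9 and 25.4 FPKM with circHIPK2 siRNA, against 10.4, 24.3 and 31.9 FPKM with circCon siRNA. The circHIPK2 siRNA libraries lay within the wide span of the circCon siRNA libraries, of which library 1 was low. Mir22hg, the host of miR-22, averaged 3.08 ± 0.51 FPKM with circHIPK2 siRNA and 2.98 ± 0.34 FPKM with circCon siRNA, and Mir124-2hg 3.15 ± 0.38 FPKM with circHIPK2 siRNA and 3.67 ± 0.80 FPKM with circCon siRNA (SD, n = 3 each). Mir670hg, the host of miR-670, had 2.06, 3.38 and 2.88 FPKM with circHIPK2 siRNA, against 3.90, 4.16 and 3.79 FPKM with circCon siRNA. Its libraries did not overlap, as for 22.1% of all entries in that direction (log2 fold change −0.41, SE 0.14; adjusted p = 0.223, limma). Poly(A) selection measures host transcripts, not mature microRNAs, so the output of the machinery is not measured here.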

How the data were processed

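RNA was sequenced from 6 poly(A)-selected libraries of mouse neural stem cells. The deposited values are FPKM per gene symbol, made by the authors with the mm9 build, and the tools named in the submitters' processing notes are HISAT, StringTie and edgeR. Their versions, the annotation, and the use of strand and of molecular identifiers are not given. Raw counts were not used here.

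FPKM were compared as log2(FPKM + 1) for the 13702 entries whose mean reached 1 FPKM, with limma 3.58.1 in R 4.3.3 (mean-variance trend, two-sided, Benjamini-Hochberg adjustment over all entries, threshold 0.05). Shares and ratios within a library were compared with exact permutation tests (scipy 1.17.1). The steps were tested on simulated data. The alternatives were 2 other pseudocounts, 2 other filters, 3 other scalings, no trend, the replicate number as a block, and each library left out.

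Depth was taken from the steps of low FPKM in genes with a single GENCODE M21 transcript of 500 nt or more: 39.6% to 43.6% of such values fell within 0.05 of a whole number of fragments (10% by chance).

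The genes and lists were chosen with earlier results of these data known. Named were the 10 genes, the most abundant tested gene of each pathway list, any called gene, and the 3 entries nearest in pattern to Ago2 and to Dicer1 (Gm, Rik, clone and pseudogene names left out); 1 gene that the rule takes is not reported here. Other genes are said to be named after their values were seen. Zcchc6, Zcchc11 and Papd4 were matched to Tut7, Tut4 and Tent2 by RefSeq synonyms.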

Additional observations from a re-analysis of the deposited data

How the results depend on the processing

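None of the 10 genes passed under any of the 15 alternatives run. Of 147 values of single genes under them, 123 kept their sign and 24 changed it. The other filters, the fit without trend and the block leave a log2 fold change as it was, so no sign could change there. The smallest adjusted p was 0.139 (Prkra without circHIPK2 siRNA library 2, limma). With median-of-ratios scaling, quantile normalization and rescaling without the ribosomal RNA locus entries, the log2 fold changes were 0.044, 0.059 and 0.11 for Drosha, 0.079, 0.064 and 0.13 for Dgcr8, and 0.081, 0.087 and 0.15 for Xpo5. They were 0.044, 0.040 and 0.11 for Dicer1, 0.080, 0.080 and 0.14 for Ago2, and 0.048, 0.030 and 0.094 for Ago4. These scalings differ by construction in the level they set for all entries. Rescaling moved the median of the 10 genes to 0.11 and the summed Argonaute difference to 0.89 FPKM. With 1 library left out, the log2 fold changes ran from −0.22 to 0.015 for Dicer1, −0.13 to 0.051 for Dgcr8, −0.044 to 0.17 for Ago3 and −0.084 to 0.021 for Ago4. They stayed below 0 for Tarbp2 (−0.35 to −0.097), Drosha (−0.15 to −0.033), Xpo5 (−0.094 to −0.0042), Ago2 (−0.080 to −0.017), Prkra (−0.34 to −0.21) and Ago1 (−0.37 to −0.22). The Tarbp2 to Prkra ratio ran from −0.11 to 0.21, the Dgcr8 to Drosha ratio from 0.00048 to 0.15 (both log2 differences), the summed Argonaute difference from −6.70 to −3.79 FPKM and the Ago2 share from 1.94 to 3.22 percentage points. Over all entries, 16 were called higher and 19 lower; 7 were higher with no filter and 8 lower with a mean of at least 5 FPKM. Leaving out 1 library gave 2 to 15 higher and 6 to 23 lower, with 2 and 6 without circHIPK2 siRNA library 3. The causes were not tested. The labels give replicate numbers but do not say whether same-numbered libraries were paired. Such libraries deviated from their group means with correlations of 0.046, 0.015 and 0.13, and not every library correlated best with its own number. With so few libraries this cannot settle whether they were paired. The block gave 23 higher and 23 lower calls, 0 among the 10 genes. At these depths the weakest gene, Ago4, rested on at most 298 fragments in a library.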
